A study of Mus musculus with 12 samples.

Results

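The genes described here are 44 genes of the extracellular matrix, which encode collagens, laminins and other matrix proteins. They were found by symbol among the 24411 gene symbols of the deposited tables, and all 44 symbols were listed for all 12 libraries. They fall into 3 sets, with 7 genes of fibrillar collagens, 15 genes of the basement membrane and 22 genes of other matrix proteins. Of the 44, 43 had at least 1 TPM in every library and were tested. Ogn, which encodes the small proteoglycan osteoglycin, had at most 0.68 TPM in any library, with 0 TPM in both control XX libraries, and was not tested.

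The matrix is the protein scaffold that cells secrete around themselves. Fibrillar collagens assemble into the tension-bearing fibres of connective tissue, and collagen IV and laminins form the basement membrane, a thin sheet under epithelia and around vessels that nidogens and perlecan tie together. Collagen chains have prolines and lysines that are hydroxylated by enzymes which need iron and oxygen, and the helix is unstable without the hydroxylated prolines. In the fetal gonad a basement membrane surrounds the cords in which the testis organises its supporting cells.

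RNA was measured in NR5A1(+) cells, the somatic cells of the mouse gonad that carry the nuclear receptor NR5A1, by sequencing. The 3 Dfo XY libraries came from XY gonads cultured with 150 µM Dfo, the iron chelator deferoxamine, and the 3 control XY and 2 control XX libraries came from gonads cultured as the control. Culture began at E10.8, lasted 19.2 h, and used DMEM with 10% horse serum and explants that kept the aorta, mesonephros and mesenchyme beside the gonad. The 2 E11.5 XY and 2 E11.5 XX libraries came from gonads of E11.5 embryos, which the labels call WT. The labels attach the text on culture and Dfo to all 12 samples, and the E11.5 samples were taken as uncultured from their titles and tissue label, which name no culture. All 12 samples have the genotype Nr5a1-hCD271, and no source used here says how the NR5A1(+) cells were isolated. The labels name no embryo or litter for a replicate, so a p-value measures only how far these libraries spread, which may be technical.

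Levels are TPM, a measure of transcript abundance that is corrected for gene length and sums to the same total in every library. Changes are differences of log2(TPM + 1) with the standard error from limma, and a gene was called at a Benjamini-Hochberg adjusted p below 0.05 over all 16133 genes tested. The words rose and fell are kept for such calls. All adjusted p-values below come from limma with this adjustment. Sequencing depth is unknown, since TPM keeps none. In bulk RNA, fewer cells of a type and less RNA per cell cannot be told apart.

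The libraries differed in ways that bear on every matrix gene. The RNase P RNA Rpph1 alone took 19.5% to 23.6% of TPM in Dfo XY, 15.3% to 20.3% in control XY, 6.96% to 7.2% in control XX and 8.57% to 12.2% in the 4 libraries of E11.5. A larger share of 1 RNA lowers the TPM of all others, so the scaling of the libraries was varied beside the main results. Dfo XY replicates 1 and 2 held 13.6 and 24.6 TPM of Xist, the RNA of X inactivation, whereas replicate 3 held 0.28 TPM and the other XY libraries at most 0.90 TPM. Replicates 1 and 2 also lay close together, with a median absolute log2 difference of 0.07 in Dfo XY and 0.06 in control XY over 3051 genes, against 0.19 to 0.20 with replicate 3. All 9 markers of gonadal somatic cells were detected in every group, with summed levels between 651 and 1580 TPM, and markers of other cells were present too, erythroid genes reaching 2570 TPM in sum.

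The 43 tested matrix genes spanned 1.07 to 515.9 TPM. Together the 44 took 0.242% to 0.265% of TPM in Dfo XY and 0.298% to 0.303% in control XY. In control XX the share was 0.397% to 0.423%, in E11.5 XY 0.354% to 0.375% and in E11.5 XX 0.385% to 0.427%. Per length, Col3a1 had the highest mean level of all 44 in each of the 5 groups, with 284 ± 47.4 TPM in Dfo XY (SD, n = 3) and 316 ± 48.1 TPM in control XY (SD, n = 3). Sparc and Fn1 followed in Dfo XY, at 275 ± 42.7 and 243 ± 12.4 TPM (SD, n = 3), and in control XY Mfap2, at 201 ± 37.4 TPM, lay between Sparc, at 276 ± 30.1 TPM, and Col1a1, at 194 ± 23.5 TPM (SD, n = 3). The levels of Mfap2, Col1a1, Col1a2 and Fn1 in control XY lay within their spread of each other. Lum, Col14a1, Col4a6, Lama2, Fbln5 and Eln had mean levels below 20 TPM in every group.

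The first comparison asked how chelation of iron changed matrix genes in cultured XY gonadal cells. Type I collagen, laminin alpha 1, collagen XVIII, collagen XXVI, versican, periostin and the microfibril gene Mfap4 fell in Dfo XY, and fibronectin rose. Of the 43 tested genes, 13 fell and 1 rose, which is 32.6% called, against 15.5% of all genes tested (4.98% higher and 10.5% lower). By set, 2 of 7 fibrillar collagens, 3 of 15 basement membrane genes and 8 of 21 other matrix genes fell, and the 1 that rose was Fn1, of the other matrix set. The median log2 change was -0.37 for fibrillar collagens, -0.06 for the basement membrane and -0.56 for other matrix, against -0.17 for all genes. Under median-of-ratios scaling, which centres the libraries on their common genes and brings the median of all genes to -0.05, 9 matrix genes were higher and 11 lower. Quantile normalization gave 4 and 13, and leaving out the 50 most abundant genes gave 6 and 13. Of all genes, these 3 scalings called 1521, 1291 and 1177 higher, against 803 as deposited. They called 1023, 1193 and 1207 lower, against 1695 as deposited. The basement membrane median was above 0 under each of these scalings, at 0.09, 0.04 and 0.04. Without Dfo XY replicates 1 and 2, which held Xist, 1 matrix gene was higher (Tnc) and 11 were lower, with the lone Dfo XY library assumed to vary like the others, and 10 of these 12 are among the 14. With the replicate number as a block, 2 matrix genes were higher and 17 lower, and 3843 of all genes were called, against 2498 without it. Of the 14 calls, 8 held in each of the 22 alternatives run, namely Col1a1, Col1a2, Lama1, Col18a1, Col26a1, Vcan, Postn and Mfap4. When replicates 1 and 2 were averaged as 1 library these 8 were the only calls, all lower.

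**Figure D1:**
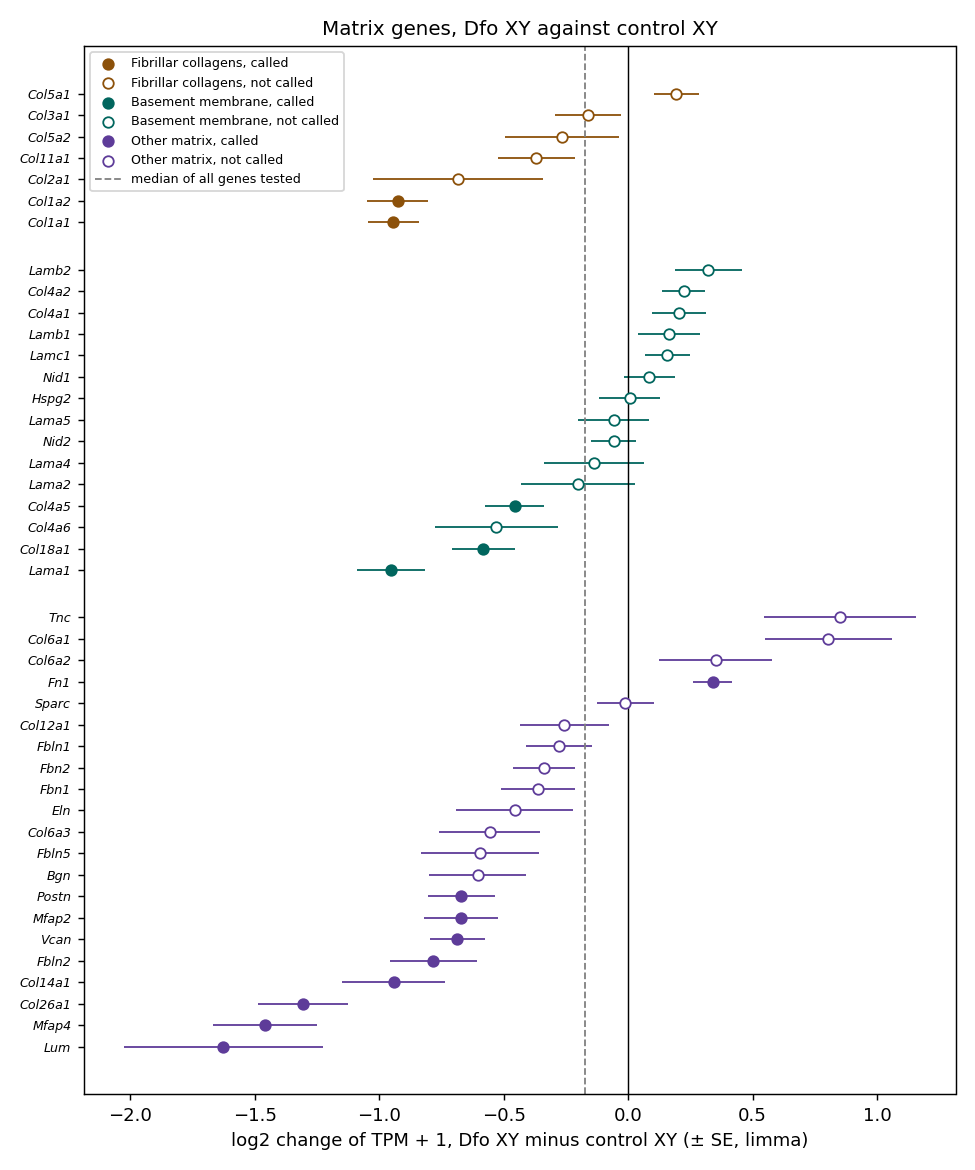
Log2 change of TPM + 1 in Dfo XY minus control XY (x axis, point ± SE from limma, 3 libraries per group) for the 43 matrix genes tested, grouped by set. Filled points are called at an adjusted p below 0.05 and the dashed line is the median of all genes, -0.17. Lum lies lowest, at -1.63, and at the deposited scaling, which is plotted, the 1 filled point above 0 is Fn1, at 0.34.

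Among the fibrillar collagens, the pair that makes type I collagen, the main collagen of most connective tissue, fell together. Col1a1 (chr11:94936224-94953042, mm10, plus strand), the alpha 1 chain, had 112, 97.1 and 91.6 TPM in Dfo XY, against 197, 216 and 169 TPM in control XY. Col1a2 (chr6:4504814-4541544, plus strand), the alpha 2 chain, had 121, 102 and 84.4 TPM in Dfo XY, against 187, 207 and 188 TPM in control XY. For both chains all 3 Dfo XY libraries lay below all 3 control XY libraries, and below the E11.5 and control XX libraries as well. Col1a1 fell by 0.94 ± 0.10 (adjusted p = 7.65e-05) and Col1a2 by 0.93 ± 0.12 on the log2 scale (adjusted p = 0.000334). The ratio of Col1a1 to Col1a2, which a constant factor per library cannot move, was 0.930 to 1.08 in Dfo XY and 0.902 to 1.05 in control XY.

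The other 5 fibrillar collagen genes were not called. Col3a1, the chain of type III collagen, had 261, 251 and 338 TPM in Dfo XY, against 281, 297 and 371 TPM in control XY, and the groups overlapped. Its change was -0.16 ± 0.13, with a 95% interval of -0.45 to 0.13. Col5a1, a chain of the type V collagen that nucleates type I fibrils, was higher in every Dfo XY library, at 74.97, 67.9 and 67.8 TPM, against 59.01, 60.3 and 64.4 TPM in control XY. Its change of 0.19 ± 0.09 missed the threshold (adjusted p = 0.175) and was called under median-of-ratios scaling (adjusted p = 0.0182) and without the 50 most abundant genes (adjusted p = 0.0405). Col2a1, the cartilage collagen, had 21.7, 19.5 and 18.2 TPM in Dfo XY, against 52.2, 43.8 and 14.5 TPM in control XY. Control XY replicate 3 stood apart from the other 2 control XY libraries here and lay below every Dfo XY library. The change of Col2a1 was -0.68 ± 0.34 (adjusted p = 0.207), and -1.23 without control XY replicate 3 (adjusted p = 0.000617). Col5a2 and Col11a1 had changes of -0.27 ± 0.23 and -0.37 ± 0.15, and Col11a1 was lower in every Dfo XY library, at 13.4, 11.6 and 12.9 TPM, against 18.2, 17.3 and 14.4 TPM in control XY.

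**Figure D2:**
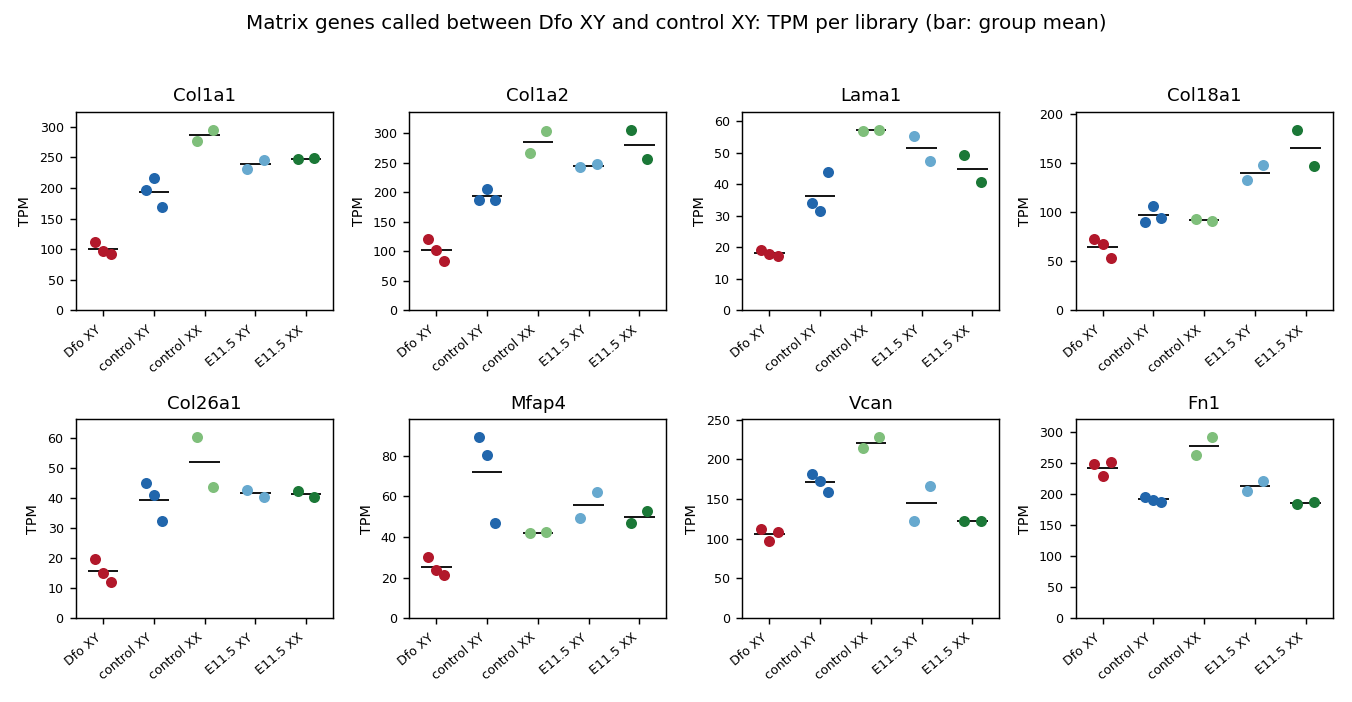
TPM (y axis, from 0) of 8 matrix genes in each library of the 5 groups, with a bar at the group mean (n = 3, 3, 2, 2 and 2). The Dfo XY points of Col1a1, at most 112 TPM, lie below all others, and those of Fn1, at least 229 TPM, lie above the control XY and both E11.5 groups.

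In the basement membrane set the genes moved unequally. Lama1 (chr17:67697259-67822647, plus strand), the laminin alpha 1 chain of early embryonic basement membranes, had 19.3, 17.98 and 17.3 TPM in Dfo XY, against 34.03, 31.4 and 43.8 TPM in control XY. The Dfo XY libraries were lower than every other library of the series. Lama1 fell by 0.95 ± 0.14 (adjusted p = 6e-04). The partners of this chain in the laminin trimer had changes above 0. Lamb1, the beta 1 chain, had 129.97, 118 and 149 TPM in Dfo XY, against 104, 107 and 145 TPM in control XY, and Lamc1, the gamma 1 chain, had 96.5, 89.4 and 94.2 TPM in Dfo XY, against 81.1, 78.8 and 91.2 TPM in control XY. The groups overlapped for both, and the changes were 0.17 ± 0.12 and 0.16 ± 0.09. The ratio of Lama1 to Lamb1 was 0.116 to 0.152 in Dfo XY and 0.293 to 0.327 in control XY, with no overlap. Lama1 made up 28.7% to 31.4% of the summed TPM of Lama1, Lama2, Lama4 and Lama5 in Dfo XY and 40.6% to 52.0% in control XY. Lama2, Lama4 and Lama5, which encode other alpha chains, changed by -0.20 ± 0.23, -0.14 ± 0.20 and -0.06 ± 0.14 and were not called.

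Col18a1 (chr10:77052178-77166548, minus strand) encodes collagen XVIII, a basement membrane proteoglycan whose end is cleaved to endostatin. It had 72.9, 68.1 and 53.5 TPM in Dfo XY, against 90.4, 106 and 94.6 TPM in control XY, and fell by 0.58 ± 0.13 (adjusted p = 0.00838). Col4a5 (chrX:141475385-141689234, plus strand), the alpha 5 chain of collagen IV, had 16.01, 16.2 and 19.5 TPM in Dfo XY, against 21.8, 24.9 and 25.2 TPM in control XY, and fell by 0.46 ± 0.12 (adjusted p = 0.0231). Neither gene overlapped between the groups. The call of Col4a5 was lost in 7 of 22 alternatives, among them median-of-ratios scaling (adjusted p = 0.0528). Col4a6, whose start lies head to head with that of Col4a5 at a distance of 1309 bp on chromosome X, had a change of -0.53 ± 0.25 and overlapped between the groups.

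The main chains of collagen IV, Col4a1 and Col4a2, are also arranged head to head, on chromosome 8, and their annotated transcripts share their first 22 bases on opposite strands (chr8:11312805-11312826). No source used here says whether the counting used strand. The shared bases, in capitals, are shown because both chains of the same collagen are transcribed from them (RefSeq, GRCm38.p6):
Col4a1 strand: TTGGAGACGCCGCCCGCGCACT
Col4a2 strand: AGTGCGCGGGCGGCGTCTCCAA

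Col4a1 had 139.9, 125 and 117 TPM in Dfo XY, against 104, 105 and 122 TPM in control XY. Col4a2 had 84.97, 77.8 and 77.2 TPM in Dfo XY, against 68.97, 66.2 and 69.8 TPM in control XY. The groups overlapped for Col4a1 and not for Col4a2, which was higher in Dfo XY. The changes were 0.21 ± 0.11 (adjusted p = 0.228) and 0.22 ± 0.09 (adjusted p = 0.102). Both were called higher under median-of-ratios scaling, at 0.36 and 0.37, as were Lamb1, Lamb2 and Lamc1. Col4a2 and Lamb2 were also called higher under quantile normalization. Without the 50 most abundant genes Col4a2, Lamb2 and Lamc1 were called higher. The ratio of Col1a1 to Col4a1 was 0.779 to 0.802 in Dfo XY and 1.39 to 2.06 in control XY. In this ratio the Dfo XY libraries lay close together and far below the control XY libraries. The remaining basement membrane genes were not called at the deposited scaling, with changes of 0.32 ± 0.13 for Lamb2, 0.09 ± 0.10 for Nid1 and -0.06 ± 0.09 for Nid2, the nidogens, and 0.01 ± 0.12 for Hspg2, which encodes perlecan. Lamb2 did not overlap, at 36.2, 40.9 and 46.9 TPM in Dfo XY, against 33.2, 31.4 and 33.6 TPM in control XY.

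**Figure D3:**
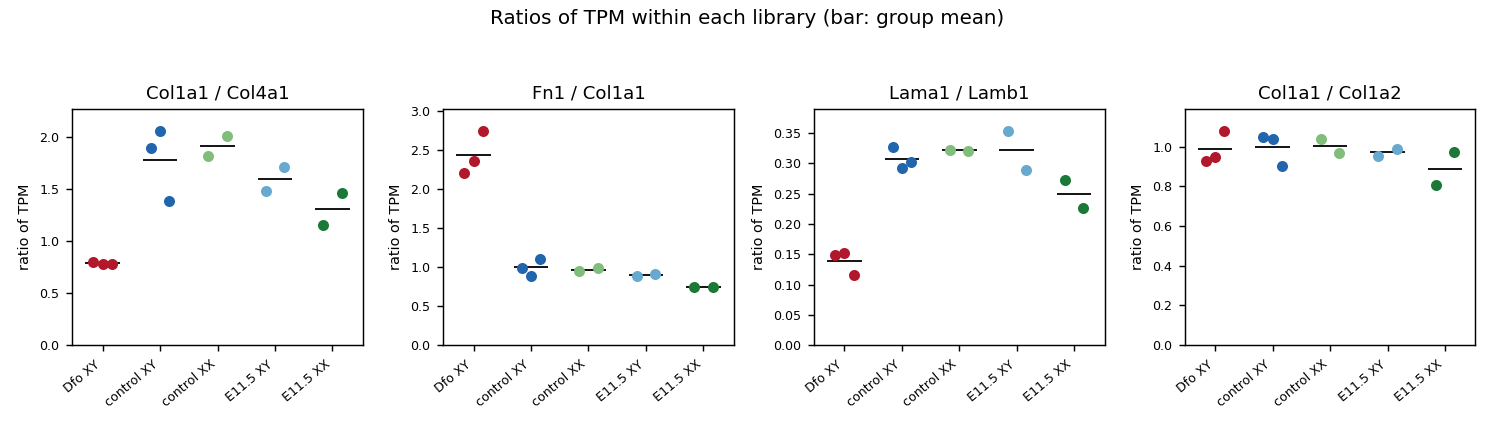
Ratios of TPM within each library (y axis, no unit, from 0) by group, with a bar at the group mean (n = 3, 3, 2, 2 and 2). The Dfo XY points lie below every other library for Col1a1 to Col4a1 (0.779 to 0.802) and Lama1 to Lamb1 (0.116 to 0.152), above every other for Fn1 to Col1a1 (2.21 to 2.75), and overlap the others for Col1a1 to Col1a2 (0.93 to 1.08, the highest of all 12 being Dfo XY replicate 3).

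Fn1 (chr1:71585520-71653200, minus strand) encodes fibronectin, the adhesive glycoprotein that integrins bind and on which other matrix proteins assemble. It had 248, 229 and 252 TPM in Dfo XY, against 196, 191 and 188 TPM in control XY. Every Dfo XY library was above every control XY library, and below both control XX libraries, at 263 and 292 TPM. Fn1 rose by 0.34 ± 0.08 (adjusted p = 0.0115). The call was lost when replicates 1 and 2 were averaged and when both Dfo XY libraries with Xist were left out, the highest adjusted p being 0.087. The ratio of Fn1 to Col1a1 was 2.21 to 2.75 in Dfo XY and 0.886 to 1.11 in control XY.

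Tnc and Col6a1 had larger changes than Fn1 but varied more between libraries. Tnc, tenascin C, a matrix protein of embryonic and remodelling tissue, had 34.4, 37.6 and 75.96 TPM in Dfo XY, against 22.1, 19.3 and 37.3 TPM in control XY. Replicate 3 was the highest in both groups, and the groups overlapped. The change of Tnc was 0.85 ± 0.31 (adjusted p = 0.0818), and with the replicate number as a block the adjusted p was 0.0067. Col6a1, the alpha 1 chain of the beaded-filament collagen VI, had 52.6, 43.1 and 29.9 TPM in Dfo XY, against 20.6, 20.7 and 28.3 TPM in control XY. All Dfo XY libraries were higher, replicate 3 by the least. The change was 0.81 ± 0.25 (adjusted p = 0.0505), and 10 of 22 alternatives called it. The other collagen VI genes were not called, with changes of 0.35 ± 0.23 for Col6a2 and -0.56 ± 0.20 for Col6a3, and Col6a3 was called lower under the replicate block (adjusted p = 0.0408).

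Mfap4, Mfap2 and Fbln2 encode proteins of elastic fibres and their microfibrils and fell in Dfo XY. Mfap4 (chr11:61485431-61488900, plus strand) had 30.2, 23.7 and 21.02 TPM in Dfo XY, against 89.04, 80.4 and 47.1 TPM in control XY. Mfap2 (chr4:141010418-141015984, plus strand) had 147, 128 and 102 TPM in Dfo XY, against 220.2, 225 and 158 TPM in control XY. Replicate 3 was the lowest library of its group for both genes, and the groups did not overlap. Mfap4 fell by 1.46 ± 0.21 (adjusted p = 0.000585) and Mfap2 by 0.67 ± 0.15 (adjusted p = 0.00929), and the Mfap2 call was lost under median-of-ratios scaling. Fbln2 (chr6:91212455-91272540, plus strand), fibulin 2, had 13.8, 13 and 15.2 TPM in Dfo XY, against 23.4, 24.2 and 26.7 TPM in control XY, and fell by 0.78 ± 0.18 (adjusted p = 0.0102). The fibrillins and elastin, the core of the same fibres, were not called. Fbn1 changed by -0.36 ± 0.15, Fbn2 by -0.34 ± 0.12, Fbln1 by -0.28 ± 0.13, Fbln5 by -0.60 ± 0.24 and Eln by -0.46 ± 0.23. Under the replicate block Fbn1 and Fbln1 were called lower (adjusted p = 0.0273 and 0.0478).

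Among proteoglycans, versican and lumican fell. Vcan (chr13:89655312-89742509, minus strand), the large hyaluronan-binding proteoglycan of embryonic mesenchyme, had 112, 97.6 and 108 TPM in Dfo XY, against 181, 172 and 159 TPM in control XY, and fell by 0.69 ± 0.11 (adjusted p = 0.00134). Lum (chr10:97565128-97572703, plus strand), a small proteoglycan that spaces collagen fibrils, had 5.67, 4.96 and 1.08 TPM in Dfo XY, against 15.9, 14.7 and 8.13 TPM in control XY, and fell by 1.63 ± 0.40 (adjusted p = 0.0168). Replicate 3 was the lowest library of its group for Lum and the groups did not overlap. The Lum call was lost in 4 alternatives, among them leaving out control XY replicate 1 or 2. Bgn, biglycan, of the same small family, had 14.3, 12.8 and 7.70 TPM in Dfo XY, against 20.2, 18.4 and 14.6 TPM in control XY. Every Dfo XY library was lower, and the change of -0.60 ± 0.20 just missed the threshold (adjusted p = 0.0555); under the replicate block the adjusted p was 0.0269.

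Col26a1 (chr5:136741759-136883209, minus strand), a collagen described in testis and ovary, had 19.8, 15 and 11.95 TPM in Dfo XY, against 45, 41.2 and 32.5 TPM in control XY. Col14a1 (chr15:55307750-55520803, plus strand), a fibril-associated collagen, had 2.51, 2.13 and 3.09 TPM in Dfo XY, against 5.23, 5 and 7.51 TPM in control XY. Postn (chr3:54361109-54391037, plus strand), the matricellular protein periostin that binds fibrillar collagen, had 19.9, 18.8 and 16.9 TPM in Dfo XY, against 25.9, 28.1 and 36.97 TPM in control XY. None of these 3 overlapped between the groups, and for each of the 3 the Dfo XY libraries were the lowest of all 12. Col26a1 fell by 1.31 ± 0.18 (adjusted p = 0.000467), Col14a1 by 0.94 ± 0.21 (adjusted p = 0.0091) and Postn by 0.67 ± 0.14 (adjusted p = 0.00588). Sparc, the collagen-binding glycoprotein osteonectin and the second most abundant matrix gene of Dfo XY, had 254, 247 and 324 TPM in Dfo XY, against 259, 258 and 311 TPM in control XY, with a change of -0.01 ± 0.12 and a 95% interval of -0.26 to 0.24, and its change was above 0 under the 3 other scalings. Col12a1, the other fibril-associated collagen, changed by -0.26 ± 0.18 and was not called.

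The bases before the start of Postn and Vcan are shown because both genes fell in every alternative run. Each line gives the 250 bases before the RefSeq start on the gene's strand (GRCm38.p6), Postn at chr3:54360857-54361106, plus strand, and Vcan at chr13:89742513-89742762, minus strand, and none of these bases lies in an annotated exon. Capitals mark TATAAA or CCAAT, searched on both strands:
Postn: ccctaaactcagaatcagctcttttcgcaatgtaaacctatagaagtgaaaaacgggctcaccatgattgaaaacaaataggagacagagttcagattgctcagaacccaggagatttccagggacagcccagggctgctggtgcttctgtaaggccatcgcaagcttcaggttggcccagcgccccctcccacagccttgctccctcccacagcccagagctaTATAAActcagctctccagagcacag
Vcan: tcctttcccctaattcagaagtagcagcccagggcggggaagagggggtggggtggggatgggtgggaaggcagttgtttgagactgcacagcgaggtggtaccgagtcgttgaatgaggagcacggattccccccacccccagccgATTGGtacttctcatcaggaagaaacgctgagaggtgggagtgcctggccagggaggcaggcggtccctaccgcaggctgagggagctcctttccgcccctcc

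Postn has 1 TATAAA, which begins 26 bases before the start, and Vcan has 1 CCAAT, read as ATTGG on the gene's strand, which begins 103 bases before it. Of the 44 matrix genes, 29 had 36 such windows in the RefSeq table. TATAAA stood in 5 of the 36 (13.9%), against 12.4% of all 32851 windows, and CCAAT in 11 of the 36 (30.6%), against 33.8%. The letters are a description of these windows and do not show binding of a factor.

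Genes that act on the matrix changed in both directions in Dfo XY. Of 27 collagen hydroxylases, chaperones and cross-linking enzymes, 7 rose and 5 fell, with a median of -0.15, near that of all genes. These are 25.9% and 18.5% of the list, against 4.98% of all genes called higher and 10.5% called lower. The calls in this list and in the receptor, protease and TGF-beta lists were counted at the deposited scaling alone. The largest changes were in hydroxylases of collagen. P4ha2, a subunit of prolyl hydroxylase, had 287, 247 and 268 TPM in Dfo XY, against 13.4, 11.3 and 21.2 TPM in control XY, and rose by 4.09 ± 0.20 (adjusted p = 2.1e-07). P4ha1, the related subunit, had 193, 196 and 233 TPM in Dfo XY, against 21.5, 17.01 and 28.4 TPM in control XY, and rose by 3.19 ± 0.20 (adjusted p = 1.16e-06). Plod2, a lysyl hydroxylase of collagen, had 180.5, 177 and 151 TPM in Dfo XY, against 34.99, 40.4 and 31.5 TPM in control XY, and rose by 2.22 ± 0.12 (adjusted p = 2.42e-07). The Dfo XY libraries of all 3 enzymes lay far above every other library, while type I collagen, whose chains they modify, fell in the same libraries.

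Of 26 matrix receptors, 5 rose and 2 fell in Dfo XY, which is 19.2% and 7.69%, against 4.98% and 10.5% of all genes. Itgb1, the beta 1 integrin chain, averaged 231 ± 25.8 TPM in Dfo XY and 158 ± 14.6 TPM in control XY (SD, n = 3 each) and rose by 0.55 ± 0.10 (adjusted p = 0.00263). Itga4, an integrin chain that binds fibronectin, averaged 2.22 ± 0.903 TPM in Dfo XY and 6.37 ± 0.363 TPM in control XY (SD, n = 3 each) and fell by 1.23 ± 0.24 (adjusted p = 0.00457). Bcam, a laminin receptor, averaged 55.6 ± 6.32 TPM in Dfo XY and 87.6 ± 16.4 TPM in control XY (SD, n = 3 each) and fell by 0.64 ± 0.13 (adjusted p = 0.00703).

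Of 23 matrix proteases and inhibitors, 6 rose and 5 fell, which is 26.1% and 21.7%, against 4.98% and 10.5% of all genes. The versican-cleaving proteases Adamts1 and Adamts9 rose by 0.96 ± 0.12 and 0.65 ± 0.10 (adjusted p = 0.00019 and 0.00101). Plau, the urokinase that activates plasmin, averaged 67.8 ± 14.7 TPM in Dfo XY and 18.6 ± 3.53 TPM in control XY (SD, n = 3 each) and rose by 1.81 ± 0.25 (adjusted p = 0.000447). Of 15 TGF-beta genes, 1 rose, Skil, which represses SMAD signalling, by 0.77 ± 0.10 (adjusted p = 0.000311). The TGF-beta list, with 6.67% called against 15.5% of all genes, had a median of 0.10.

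Markers of the gonadal cells themselves and of other cells in the explants moved beside these genes. Of all genes, 4.98% were called higher and 10.5% lower, and the markers were counted at the deposited scaling alone. Of 13 mesenchyme markers tested, 4 fell in Dfo XY (Twist2, Meox1, Meox2 and Dcn), and their 14 genes summed to 284 to 346 TPM in Dfo XY and 375 to 385 TPM in control XY, with none at 0 in the whole of either group. Coelomic and mesothelial markers fell in 5 of 8, with sums of 400 to 482 TPM in Dfo XY and 629 to 802 TPM in control XY. Gonadal markers fell in 4 of 9, with sums of 651 to 730 TPM in Dfo XY and 809 to 1010 TPM in control XY. The sums of these 3 lists did not overlap between the groups. Cartilage markers fell in 1 of 5, with sums of 21.4 to 26.3 TPM in Dfo XY and 37.6 to 50.7 TPM in control XY, and Ucma was at 0 in both. Smooth muscle and pericyte markers rose in 1 and fell in 2 of 10, with sums of 210 to 350 TPM in Dfo XY and 268 to 284 TPM in control XY. Endothelial markers rose in 1 of 12, with sums of 138 to 223 TPM in Dfo XY and 95.9 to 197 TPM in control XY. For muscle, pericyte and endothelial markers the sums overlapped. Germ cell markers fell in 2 of 10, with sums of 181 to 231 TPM in Dfo XY and 388 to 495 TPM in control XY. Ifitm1, which other cells can express too, made up 85.2% to 89.2% of this sum in Dfo XY and 91.3% to 92.9% in control XY, and the other germ cell markers summed to 19.6 to 30.2 TPM in Dfo XY and 33.7 to 35.7 TPM in control XY. Mesonephric markers fell in 3 of 10, with sums of 64.9 to 110 TPM in Dfo XY and 131 to 151 TPM in control XY. Neural markers rose in 1 and fell in 3 of 10, with sums of 58.7 to 94.4 TPM in Dfo XY and 87.3 to 187 TPM in control XY. No macrophage or erythroid marker was called, and their sums were 122 to 191 and 1020 to 2570 TPM in Dfo XY, against 83.4 to 149 and 252 to 1980 TPM in control XY. The part of these cells in the fall of matrix genes was not tested.

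The second comparison asked how matrix genes differed between the sexes in culture without Dfo. As deposited, 20 of 43 matrix genes were lower and 1 was higher in control XY than in control XX, against 25.2% of all genes called (22.2% lower and 2.97% higher). The lower genes were 4 of 7 fibrillar collagens, 9 of 15 basement membrane genes and 7 of 21 other matrix genes. Their medians were -0.56, -0.48 and -0.37, against -0.22 for all genes. These counts rest on the scaling. Under median-of-ratios scaling, with the median of all genes at 0.07, 0 matrix genes were lower and 2 higher (Fbln2 and Mfap4). Quantile normalization left 1 lower (Sparc) and 2 higher, and without the 50 most abundant genes 3 were lower (Col5a1, Postn and Sparc) and 2 higher. Of all genes, these 3 scalings called 499, 323 and 735 lower, against 3585 as deposited. They called 529, 291 and 513 higher, against 479 as deposited. The count was 13 without control XY replicate 1 or 2 or control XX replicate 1, and 9 without control XX replicate 2. No gene was called in all 21 alternatives, but 1 of these, the replicate block, called 0 of all genes tested. No gene could therefore have held in all of them.

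**Figure D4:**
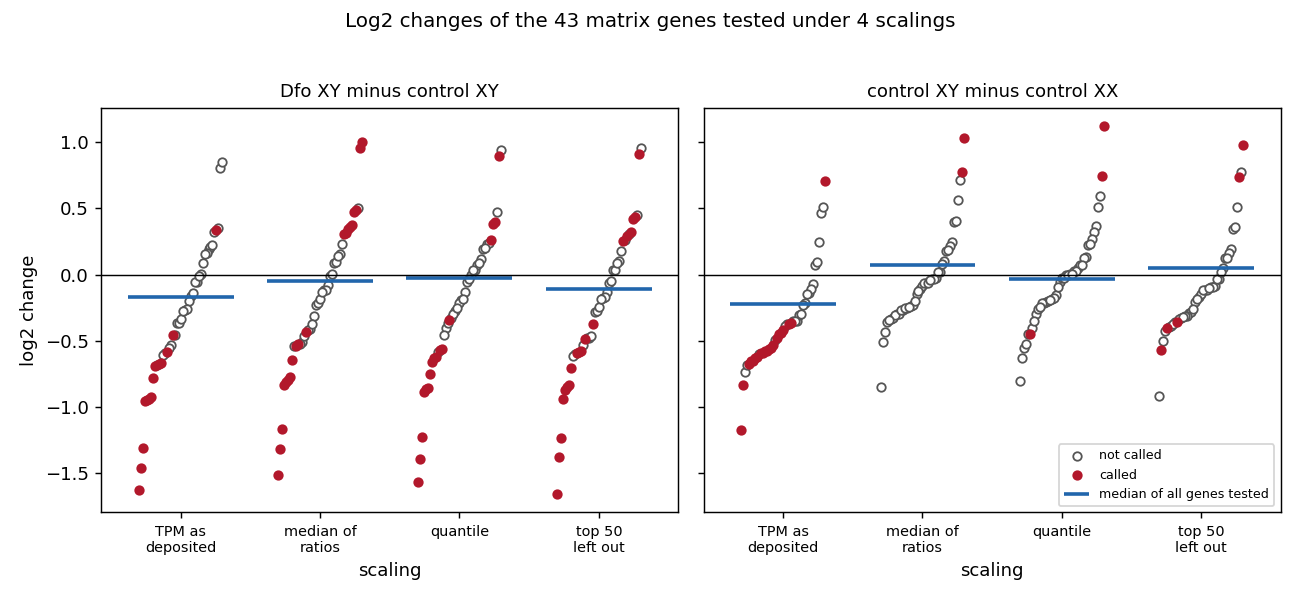
Log2 changes (y axis) of the 43 matrix genes tested under 4 scalings of the libraries (x axis), for Dfo XY minus control XY (left) and control XY minus control XX (right), with called genes filled, genes sorted by value within a scaling and a blue bar at the median of all genes. On the right, 21 genes are filled as deposited and 2 under median-of-ratios scaling, and on the left 14 and 20.

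The largest of these changes were in Tnc, Postn and Mfap4. Tnc had 22.1, 19.3 and 37.3 TPM in control XY, against 48.1 and 69.9 TPM in control XX, and was lower by 1.17 ± 0.34 in XY (adjusted p = 0.0259). Postn had 25.9, 28.1 and 36.97 TPM in control XY, against 55.5 and 52.8 TPM in control XX, and was lower by 0.83 ± 0.15 in XY (adjusted p = 0.00282). Mfap4 had 89.04, 80.4 and 47.1 TPM in control XY, against 41.8 and 42.6 TPM in control XX, and was higher by 0.71 ± 0.23 in XY (adjusted p = 0.0414). The groups did not overlap for any of the 3. Mfap4, the 1 matrix gene higher in control XY, was called under all 3 other scalings, at 1.03, 1.12 and 0.98, and its call was lost in 11 of 21 alternatives. Among these 11 is the replicate block, which called 0 of all genes tested. The 3 control XY libraries of Mfap4 ranged widely, with replicate 3 close to the XX level.

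Abundant matrix genes were among those lower in XY. Col1a1 had 194 ± 23.5 TPM in control XY (SD, n = 3) and 286 ± 12.7 TPM in control XX (SD, n = 2), and Col3a1 had 316 ± 48.1 TPM in control XY (SD, n = 3) and 486 ± 18.7 TPM in control XX (SD, n = 2). Sparc had 276 ± 30.1 TPM in control XY (SD, n = 3) and 439 ± 5.66 TPM in control XX (SD, n = 2). The changes were -0.56 ± 0.12, -0.63 ± 0.15 and -0.67 ± 0.13 (adjusted p = 0.00505, 0.0101 and 0.0037). Ratios within a library were also taken, and most of them overlapped between the sexes. Neither a constant factor per library nor an equal difference in both of its parts moves such a ratio. These ratios therefore cannot tell a factor per library from a shared difference of matrix genes, and neither was tested. The ratio of fibrillar to basement membrane TPM was 1.01 to 1.1 in control XY and 1.13 to 1.17 in control XX. Lama1 made up 40.6% to 52% of the 4 laminin alpha chains in control XY and 52.3% to 56.1% in control XX. These 2 did not overlap, by a narrow margin. The others overlapped, Lamb1 to Lamc1 only at the edge (1.28 to 1.59 in control XY and 1.59 to 1.72 in control XX). Col1a1 to Col1a2 was 0.902 to 1.05 in control XY and 0.967 to 1.04 in control XX, and Lama1 to Lamb1 was 0.293 to 0.327 in control XY and 0.321 to 0.322 in control XX.

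Beside them, 9 of 10 neural crest and neuron markers were higher in control XY, with sums of 87.3 to 187 TPM in control XY and 34.7 to 46.3 TPM in control XX. Macrophage markers were higher in 4 of 11 (sums of 83.4 to 149 TPM in control XY and 50.3 to 70 TPM in control XX, where Tyrobp was at 0) and mesonephric markers in 5 of 10 (131 to 151 TPM in control XY and 65.2 to 92.8 TPM in control XX). Gonadal markers were lower in 6 of 9, at 809 to 1010 TPM in control XY and 1530 to 1580 TPM in control XX. Erythroid markers were higher in 4 of 10, at 252 to 1980 TPM in control XY and 159 to 184 TPM in control XX. Mesenchyme markers were higher in 2 and lower in 3 of 13, at 375 to 385 TPM in control XY and 454 to 458 TPM in control XX, where Dpt and Tbx5 were at 0. Smooth muscle and pericyte markers were lower in 2 of 10, at 268 to 284 TPM in control XY and 340 to 394 TPM in control XX. Coelomic and mesothelial markers were lower in 3 of 8, at 629 to 802 TPM in control XY and 1050 to 1090 TPM in control XX, where Msln was at 0. The part of these cells in the matrix differences was not tested. Of the genes that act on the matrix, those called were lower in control XY: 8 of 27 hydroxylases and related enzymes (P4hb by 0.60 ± 0.10 and Fkbp10 by 0.77 ± 0.14), 7 of 26 receptors (Dag1, dystroglycan, by 1.0 ± 0.12 and Itgb1 by 0.61 ± 0.11), 11 of 23 proteases and inhibitors (Adam10 by 0.68 ± 0.11 and Mmp14 by 0.64 ± 0.11) and 7 of 15 TGF-beta genes (Ltbp1 by 0.96 ± 0.10 and Smad7 by 0.85 ± 0.13). These are 29.6%, 26.9%, 47.8% and 46.7% of the 4 lists, against 22.2% of all genes called lower. These lists and the markers above were counted at the deposited scaling alone.

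At E11.5 no matrix gene was called between XY and XX by limma, where 2.29% of all genes were called (1.09% higher and 1.2% lower). An unadjusted p below 0.05 was found for 11 of 43, or 25.6%, against 19.6% of all genes. Of the 43, 28 had a change below 0 in E11.5 XY, and the medians were -0.19 for fibrillar collagens, -0.17 for the basement membrane and -0.13 for other matrix, against 0.00 for all genes. The lowest values were those of collagen VI. Col6a1 had 16.5 and 26.6 TPM in E11.5 XY, against 54.7 and 36.8 TPM in E11.5 XX, and Col6a2 had 22 and 31.5 TPM in E11.5 XY, against 59.2 and 43.3 TPM in E11.5 XX. Both XY libraries lay below both XX libraries for each gene. The changes were -1.06 ± 0.31 (adjusted p = 0.0854) and -0.92 ± 0.28 (adjusted p = 0.0935). Col4a1 and Col4a2 had changes of -0.35 ± 0.13 and -0.36 ± 0.11, with the XY libraries again below the XX libraries. The largest change above 0 was that of Col2a1, at 0.72. It had 22.1 and 25.7 TPM in E11.5 XY, against 12.4 and 15.99 TPM in E11.5 XX. With 2 libraries per group these intervals are wide, that of Col6a1 being -1.74 to -0.39. Beside them, none of the 12 endothelial markers was called, but all 12 had a change below 0, with sums of 291 to 294 TPM in E11.5 XY and 385 to 439 TPM in E11.5 XX. Coelomic and mesothelial markers were lower in 2 of 8 (Krt19 and Podxl), with sums of 730 to 764 TPM in E11.5 XY and 848 to 950 TPM in E11.5 XX, where Msln was at 0. None of the 9 gonadal markers was called, and 6 had a change below 0. Their sums were 983 to 1150 TPM in E11.5 XY and 1200 to 1390 TPM in E11.5 XX. The sums of mesonephric and erythroid markers went the other way, with 0 genes of either list called. They were 159 to 183 and 1860 to 2520 TPM in E11.5 XY, against 102 to 103 and 958 to 1330 TPM in E11.5 XX. Smooth muscle and pericyte markers were lower in 1 of 10. Their sums, however, were higher in XY, at 234 to 249 TPM in E11.5 XY and 190 to 224 TPM in E11.5 XX. The part of these cells was not tested.

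The difference between the sexes in culture was then set against that at E11.5. By this interaction 1 of 43 matrix genes was called, Fn1, against 1.33% of all genes (1.14% lower and 0.192% higher). Fn1 had 196, 191 and 188 TPM in control XY, against 263 and 292 TPM in control XX, and 205 and 222 TPM in E11.5 XY, against 184 and 187 TPM in E11.5 XX. In culture the XY libraries were the lower ones and at E11.5 the higher ones, with no overlap in either case. The difference was -0.53 ± 0.09 in culture and 0.20 ± 0.10 at E11.5, and the interaction was -0.73 ± 0.13 (adjusted p = 0.0306). The median interaction of all genes was -0.26. The call was lost in 15 of 21 alternatives, including the 3 other scalings. Lama1 had an interaction of -0.84 ± 0.23 (adjusted p = 0.0776), with 34.03, 31.4 and 43.8 TPM in control XY, against 56.9 and 57.3 TPM in control XX, and 55.4 and 47.4 TPM in E11.5 XY, against 49.2 and 40.7 TPM in E11.5 XX. Of the TGF-beta genes 1 was called, Ltbp1, which holds latent TGF-beta in the matrix, at -0.77 ± 0.15 (adjusted p = 0.0364).

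The last comparisons set the cultured controls against gonads of E11.5, so culture, its medium and age cannot be told apart. They share the control XY libraries with the Dfo comparison, and control XX with the comparison of the sexes in culture. In control XY, 6 of 43 matrix genes were lower than in E11.5 XY and none was higher, against 5.66% of all genes called (3.04% lower and 2.62% higher). That count was 2 without control XY replicate 1 or 2 or E11.5 XY replicate 1 or 2, and 10 without control XY replicate 3. In control XX, 4 were lower and 3 higher than in E11.5 XX, against 9.07% of all genes called (1.71% lower and 7.36% higher), and 4 were called without E11.5 XX replicate 2. Biglycan had the largest fall in XY and in XX. In XY the medians were -0.20 for fibrillar collagens, -0.44 for the basement membrane and -0.22 for other matrix, against -0.11 for all genes, and in XX they were 0.03, 0.01 and -0.23, against 0.12 for all genes. Under the 3 other scalings the XX medians of all 3 sets were below 0.

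**Figure D5:**
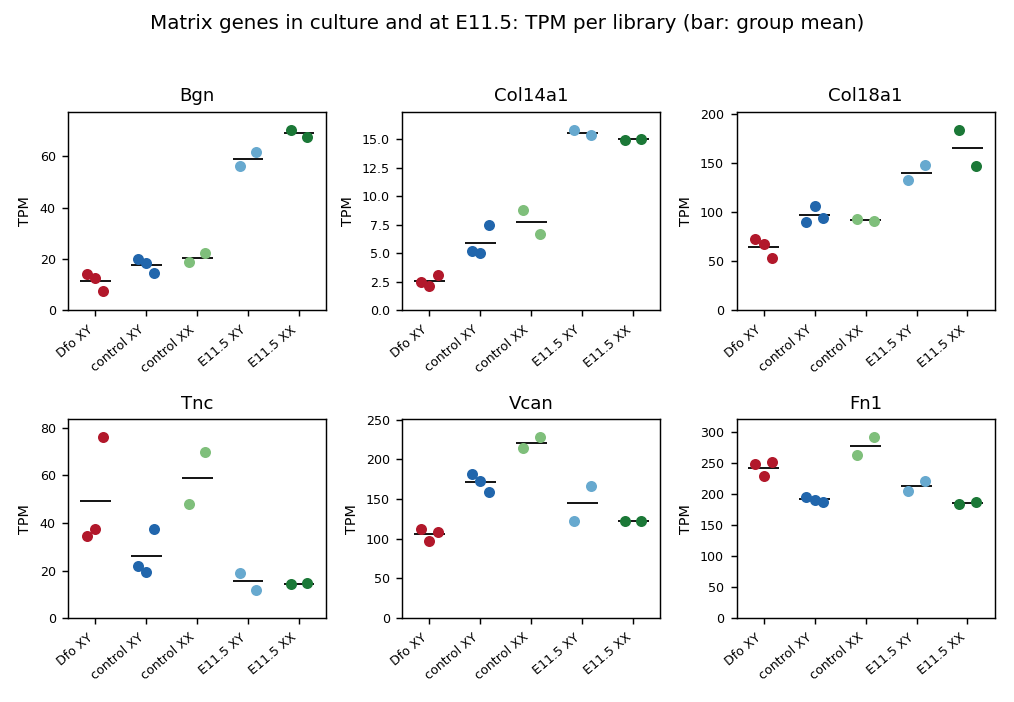
TPM (y axis, from 0) of 6 matrix genes in each library of the 5 groups, with a bar at the group mean (n = 3, 3, 2, 2 and 2). Bgn lies at 22.5 TPM or below in the 8 cultured libraries and at 56.1 TPM or above in the 4 libraries of E11.5, and Tnc is higher in all cultured libraries than in the E11.5 XX libraries.

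Bgn (chrX:73483602-73495933, plus strand) had 20.2, 18.4 and 14.6 TPM in control XY, against 56.1 and 61.7 TPM in E11.5 XY, and 18.7 and 22.5 TPM in control XX, against 70.4 and 67.5 TPM in E11.5 XX. All cultured libraries lay far below all libraries of E11.5. Bgn fell by 1.69 ± 0.22 in XY (adjusted p = 0.000918) and by 1.70 ± 0.24 in XX (adjusted p = 0.0013). The call held in all 21 alternatives in XY. In XX it was lost when only the 4 XX libraries were fitted (adjusted p = 0.32) and when the replicate block was added to that fit. Both of these 2 fits called 0 of all genes tested, so no gene could keep its call there. Col14a1 had 5.23, 5 and 7.51 TPM in control XY, against 15.9 and 15.4 TPM in E11.5 XY, and 8.85 and 6.67 TPM in control XX, against 14.95 and 15.1 TPM in E11.5 XX. It too was lower in every cultured library, by 1.28 ± 0.23 in XY (adjusted p = 0.00857) and by 0.88 ± 0.25 in XX (adjusted p = 0.0478). The XX call was lost in 14 of 20 alternatives, the same 2 fits among them.

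Col18a1 also fell in both, by 0.53 ± 0.14 in XY (adjusted p = 0.0464) and by 0.84 ± 0.15 in XX (adjusted p = 0.0062), and the XY call was lost in 17 of 21 alternatives. Postn had 25.9, 28.1 and 36.97 TPM in control XY, against 47.01 and 55.4 TPM in E11.5 XY, and fell by 0.75 ± 0.15 (adjusted p = 0.016). Nid1 and Lamc1, which bind each other in the basement membrane, fell in XY by 0.55 ± 0.12 and 0.44 ± 0.10 (adjusted p = 0.0175 and 0.0273). The calls of Postn, Nid1 and Lamc1 were lost when only these groups were fitted, under the replicate block and with replicates averaged. They were also lost without control XY replicate 1 or 2 or E11.5 XY replicate 2. Nid1 and Lamc1 lost theirs without E11.5 XY replicate 1 as well. Fbln5, a fibulin of elastic fibres, had 2.16 and 1.07 TPM in control XX, against 4.74 and 4.68 TPM in E11.5 XX, and fell by 1.16 ± 0.29 (adjusted p = 0.0282). Its 2 control XX libraries differed widely, and its level is near the floor where log2(TPM + 1) understates a change.

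Tnc, Vcan and Fn1 rose in XX culture. Tnc had 48.1 and 69.9 TPM in control XX, against 14.4 and 14.7 TPM in E11.5 XX, and rose by 1.93 ± 0.38 (adjusted p = 0.00823). Vcan had 214 and 228 TPM in control XX, against 123 and 122 TPM in E11.5 XX, and rose by 0.84 ± 0.14 (adjusted p = 0.00283). Fn1, whose values are given above, rose by 0.57 ± 0.10 (adjusted p = 0.00354). The control XX libraries were above the E11.5 XX libraries for each. In XY the same 3 genes changed by 0.70 ± 0.34, 0.26 ± 0.12 and -0.16 ± 0.09 and were not called. Whether these changes differ between XY and XX is what the interaction tested, and Fn1 was the 1 called.

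Of the genes that act on the matrix, few were called against E11.5. In XY, Loxl2, a collagen cross-linking oxidase, fell by 0.69 ± 0.14, Itga9, an integrin chain for tenascin, by 0.77 ± 0.14, and Reck, a protease inhibitor, by 0.64 ± 0.16. These were the 1 called of 27, the 1 of 26 and the 1 of 23 in their lists, and 0 of 15 TGF-beta genes were called in XY. In XX, Lox fell by 1.68 ± 0.37 and P3h1 rose by 0.52 ± 0.14, Dag1 rose by 0.78 ± 0.13, Mmp14 by 0.52 ± 0.12 and Adam10 by 0.45 ± 0.12, Ltbp1 rose by 0.78 ± 0.11 and Ltbp3 fell by 0.82 ± 0.19. In XX 2 of 27, 1 of 26, 2 of 23 and 3 of 15 genes of these lists were called. Of all genes, 5.66% were called in XY and 9.07% in XX. These lists and the markers below were counted at the deposited scaling alone. Endothelial markers were lower in culture in 3 of 12 in XY, with sums of 95.9 to 197 TPM in control XY and 291 to 294 TPM in E11.5 XY, and in 6 of 12 in XX, with sums of 145 to 157 TPM in control XX and 385 to 439 TPM in E11.5 XX. None of the 12 was at 0 in a whole group. Macrophage markers were higher in culture in 4 of 11 in XY, with sums of 83.4 to 149 TPM in control XY and 29.6 to 47.8 TPM in E11.5 XY, where Fcgr1 was at 0, and smooth muscle and pericyte markers in 3 of 10 in XX, with sums of 340 to 394 TPM in control XX and 190 to 224 TPM in E11.5 XX. Neural markers were higher in culture in 3 of 10 in XY, with sums of 87.3 to 187 TPM in control XY and 40.7 to 42.7 TPM in E11.5 XY. Erythroid markers were lower in culture in 3 of 10 in XX, with sums of 159 to 184 TPM in control XX, where Hbb-bs was at 0, and 958 to 1330 TPM in E11.5 XX. The part of these cells in the matrix changes was not tested.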

How the data were processed

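RNA of NR5A1(+) cells was measured in 12 libraries made with the SMART-Seq Stranded Kit, per the labels' protocols. The authors deposited 1 table of TPM per library, and STAR 2.7.10b, RSEM, R 4.1.2 and mm10 are named, without roles, in the submitters' processing notes. TPM keeps no depth, so counting error is unknown and the number of libraries limits the precision. Values were used as deposited. Genes with at least 1 TPM in at least 2 libraries (16133 of 24411) were tested as log2(TPM + 1) with limma 3.58.1 in R 4.3.3, using an intensity trend, all 12 libraries in 1 model and Benjamini-Hochberg adjustment per comparison. A fold change on this scale understates the change of low genes.

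The member genes and lists were chosen with earlier results of these data known. By the rule used, values per library are given for members called in Dfo XY against control XY and for the 3 called members with the largest change in each other comparison, and from each pathway list up to 3 called genes with the smallest adjusted p are named for Dfo XY and up to 2 for each other comparison. Other members shown per library were chosen after their values were seen. The fit was tested on simulated data with known changes. Gene positions are those of GENCODE M21 (mm10), and promoter sequences those of RefSeq (GRCm38.p6), whose table used here has a window for 29 of the 44 genes.

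Same-numbered libraries of Dfo XY and control XY deviated together over the 16133 genes (r = 0.21, 0.12 and 0.34). Replicate 1 of each group also correlated with replicate 2 of the other (r = 0.18 and 0.14), so this sets replicate 3 apart but does not tell 1 from 2. Every same-numbered r being over 0.1, the numbers were taken to pair them by the data alone, since no label names a shared litter or day. In the other comparisons the libraries share only a number. Alternatives were another pseudocount, no filter or a stricter one, 3 other scalings, only the groups compared, the replicate block, replicates 1 and 2 averaged, the Dfo XY libraries with Xist left out, and each library left out in turn.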

Additional observations from a re-analysis of the deposited data

Results flagged for a closer look

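Fn1 is listed because its difference between XY and XX was called as changed between culture and E11.5 at the deposited scaling. The test was of that change itself. The interaction was -0.73 on the log2 scale (limma, Benjamini-Hochberg adjusted p = 0.0306), against a median of -0.26 for all genes. The XY minus XX difference was -0.53 in culture, where all 3 control XY libraries were below both control XX libraries, and 0.20 at E11.5, where both XY libraries were above both XX libraries. The interaction stayed below 0 in all 21 alternatives, between -0.80 and -0.44, and its adjusted p ran from 0.0224 to 0.176. Its call was lost under each of the 3 other scalings.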

How the results depend on the processing

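The number of matrix genes called in Dfo XY against control XY was 14, and 8 with replicates 1 and 2 averaged, and it ran from 12 (without control XY replicate 2) to 17 (without control XY replicate 3) when 1 library was left out. In control XY against control XX the 21 calls became 2 under median-of-ratios scaling, 3 under quantile normalization, 5 without the 50 most abundant genes and 9 with replicates 1 and 2 averaged, and ran from 9 to 23 when 1 library was left out. Under quantile normalization the XY minus XX changes of Lamc1 and Nid1 turned to 0.072 and 0.003. In E11.5 XY against E11.5 XX the count ran from 0 to 1 when 1 library was left out. Col6a2 was called lower in XY without Dfo XY replicate 3, and Col2a1 higher without control XY replicate 3. In control XY against E11.5 XY the 6 calls became 1, Bgn, when only these groups were fitted and when replicates were averaged, and ran from 2 to 10 when 1 library was left out. In control XX against E11.5 XX the 7 calls became 0 when only these groups were fitted, a fit that called 0 of all genes. They ran from 4 to 9 when 1 library was left out. For the interaction the 1 call became 0 under median-of-ratios scaling, quantile normalization, without the 50 most abundant genes, with only the 4 groups and with replicates averaged, and ran from 0 to 2 when 1 library was left out. The causes were not tested.

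With the replicate block 19 matrix genes were called in Dfo XY against control XY. In the comparisons whose libraries share only a number, the replicate block left 0 in control XY against control XX, 0 in control XX against E11.5 XX, 0 in E11.5 XY against E11.5 XX, 0 for the interaction and 1 in control XY against E11.5 XY. In the first 3 of these it called 0 of all genes, so no matrix gene could pass. It called 156 of all genes for the interaction and 134 in control XY against E11.5 XY. Over all genes, calls over the alternatives ran from 833 to 3843 (2498 as reported) for Dfo XY, 0 to 4352 (4064) for sex in culture, 0 to 636 (370) for sex at E11.5, 134 to 1489 (913) for culture in XY, 0 to 1682 (1463) for culture in XX and 8 to 731 (215) for the interaction. All counts are of limma calls. With 2 or 3 libraries per group and no depth, the counting error behind low genes such as Lum, Col14a1 and Fbln5 is unknown.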
